A study of Mus musculus with 2 samples.

Results

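The genes described here carry signals of the transforming growth factor beta (TGF-beta), bone morphogenetic protein (BMP) and activin family. They are 42 named genes of the 55536 annotated mouse genes in the tables, chosen by symbol and sorted by role into 12 ligands, 12 receptors and co-receptors, 8 SMADs, and 10 secreted proteins that store or block the ligands. All 42 were found in the files by symbol and gene identifier. RNA from hearts of female B6CASTF1/J mice at postnatal day 10 had been sequenced as total RNA, in 2 libraries labelled biological replicates 1 and 2. B6CASTF1/J mice are hybrids whose parents are C57BL/6J and CAST/EiJ, so every cell carries both parental genomes. There was 1 group of hearts, with no treatment, mutant or other age to set it against. The labels list both biological replicates under a single donor record and do not say how the hearts were collected, so the spread between them may be partly technical.

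Ligands of this family are secreted dimers. Those of the TGF-beta type leave the cell bound to their own propeptide, which latent TGF-beta binding proteins (LTBPs) tether to the matrix. A released ligand brings together type I and type II receptor kinases, the type I receptor phosphorylates receptor-regulated SMADs, and these enter the nucleus with Smad4. TGF-betas and activins act mainly through Smad2 and Smad3, and BMPs through Smad1, Smad5 and Smad9. Smad6 and Smad7 are induced by the pathway and feed back on it. In the heart the family is known for valve formation, growth of the muscle wall, vessel maintenance and scar formation.

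Sequencing gave replicate 1 a total of 40403041 expected counts and replicate 2 a total of 39849597. A count of 0 allows an RNA at up to 0.0747 CPM in replicate 1 and 0.0757 CPM in replicate 2. This limit is 3 counts of the totals over annotated genes, 40184481 and 39620543, and covers counting error alone. The label of heart was met by the markers, since 7 of 7 cardiomyocyte genes were detected, led by the myosin heavy chain gene Myh6 at 8417 and 9608 TPM. TPM is a level corrected for transcript length and library size, so that genes can be set beside each other. A gene was called detected at 1 TPM or more in both libraries. Of the 42 members 32 were detected, against 23.1% of all annotated genes and 53.3% of the protein-coding ones. Detection covered 8 of 12 ligands, 11 of 12 receptors, 7 of 8 SMADs and 6 of 10 storage and inhibitor genes. Summed over the members, the level was 748 TPM in replicate 1 and 781 TPM in replicate 2, and 2 genes, Ltbp4 and Fstl1, made up 39.8% and 42.4% of it. The class medians were 2.51 ± 0.421 TPM for ligands, 12.7 ± 1.12 TPM for receptors, 12.5 ± 0.612 TPM for SMADs and 2.17 ± 0.184 TPM for the storage and inhibitor genes (SD, n = 2). The last class joins 2 unlike groups. Its 4 LTBPs were all detected, with a median of 29.4 ± 0.583 TPM. Of its 6 secreted inhibitors 2 were detected, with a median over the 6 of 0.57 ± 0.07 TPM. The median over all 42 members was 8.12 TPM and that over all 22028 protein-coding genes was 1.81 TPM. Each value is an average over all cells of the heart sample, in which fewer cells of a type and less RNA per cell cannot be told apart.

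**Figure D1:**
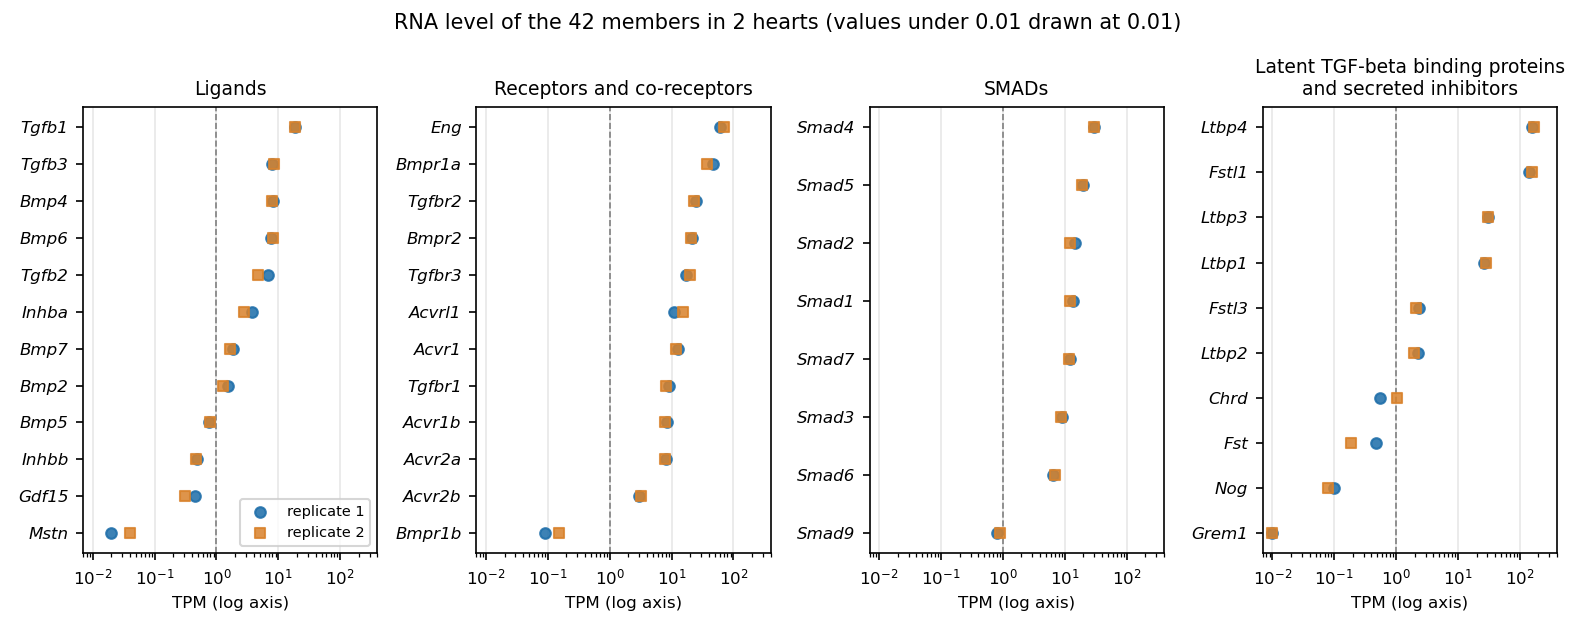
Level of each of the 42 members in TPM on a log axis, in replicate 1 (circles) and replicate 2 (squares), by class and in order of mean level. The dashed line marks 1 TPM, and Grem1, at 0 in both libraries, is drawn at 0.01. Ltbp4 and Fstl1 stand above 140 TPM in both hearts, and the ligands lie between 0.02 and 18.7 TPM.

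Tgfb1 was the most abundant ligand RNA. Tgfb1 (ENSMUSG00000002603.15, chr7:25687002-25705077, plus strand, mm10) stood at 18.4 and 18.7 TPM, from 1179 and 1181 counts. Its product is the founding member of the family and a driver of matrix synthesis in fibroblasts. The related Tgfb3 stood at 7.98 and 8.60 TPM and Tgfb2 at 6.72 and 4.73 TPM. Tgfb1 thus lay above both paralogs in each heart, while Tgfb3 and Tgfb2 were closer to each other. The log2 ratio of TPM (with 0.1 added to each value) was -1.70 ± 0.37 for Tgfb2 over Tgfb1 and -1.15 ± 0.06 for Tgfb3 over Tgfb1 (SD, n = 2). For Tgfb3 over Tgfb2 it was 0.55 ± 0.43, less than 3 SD from 0, and by kallisto, the other quantification in the files, it was 0.11.

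Among the BMPs, Bmp4 and Bmp6 led. Bmp4, a ligand of outflow tract and valve development, stood at 8.26 and 7.83 TPM. Bmp6, which endothelial cells of the liver use to set hepcidin and iron balance, stood at 7.57 and 8.11 TPM. The ranges of Bmp4, Bmp6 and Tgfb3 overlapped between neighbours, so their order is not fixed by these libraries. By kallisto Bmp6 was at 11.1 and 10.8 TPM and Bmp4 at 6.07 and 6.03 TPM, the reverse order. For Bmp4 the RSEM value took in a retained-intron transcript of 258 nt that held 45.8% and 41.6% of the gene's TPM and had a kallisto TPM of 0 in both libraries. Protein-coding transcripts held only 50.2% and 54.1% of the RSEM level of Bmp4. Bmp6 shares exon bases with Txndc5 on the opposite strand, which was at 29.0 and 27.8 TPM.

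Bmp7, a close relative of Bmp6 and Bmp5, stood at 1.86 and 1.64 TPM, and Bmp2, the closest relative of Bmp4, at 1.54 and 1.28 TPM. The log2 ratio was 2.10 ± 0.19 for Bmp6 over Bmp7 and -2.44 ± 0.12 for Bmp2 over Bmp4, which by kallisto was -1.81. Bmp5 was below the limit of detection used here, at 0.75 and 0.80 TPM from 88 and 91 counts, and its log2 ratio over Bmp7 was -1.08 ± 0.18 (SD, n = 2 for each). Of the activin subunits, Inhba stood at 3.76 and 2.79 TPM and Inhbb at 0.48 and 0.47 TPM, a log2 ratio of -2.54 ± 0.28 for Inhbb over Inhba. Homodimers of the Inhba product are activin A, those of the Inhbb product activin B. Gdf15, a stress-induced hormone that acts on the hindbrain, was at 0.45 and 0.31 TPM from 18 and 12 counts. Mstn, which encodes the muscle growth inhibitor myostatin, was at 0.02 and 0.04 TPM from 2 and 3 counts, at or below the floor of 3 counts.

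One annotated form of Tgfb2 carries an additional coding exon of 84 nt, which adds 28 codons. It is exon 2 of 8 of transcript Tgfb2-206, at chr1:186690721-186690804 on the minus strand of mm10. That transcript held 9.43% and 6.80% of the Tgfb2 level by RSEM, against 78.7% and 79.0% for Tgfb2-201, which lacks the exon. By kallisto the shares were 16.0% and 18.6% for Tgfb2-206 and 47.9% and 48.1% for Tgfb2-201. The order of the 2 forms was thus the same by both methods, and the size of the minor share was not. Retained-intron transcripts held 11.9% and 9.03% of the level by RSEM and 36.1% and 33.3% by kallisto. The 2 coding transcripts also start and end at different sites. They measure 3485 nt for Tgfb2-206 and 5116 nt for Tgfb2-201, so their shares do not rest on reads over the exon alone. The exon is printed in capitals with 12 flanking bases on each side, because it is the coding exon that Tgfb2-201 lacks.
Tgfb2-206 exon 2: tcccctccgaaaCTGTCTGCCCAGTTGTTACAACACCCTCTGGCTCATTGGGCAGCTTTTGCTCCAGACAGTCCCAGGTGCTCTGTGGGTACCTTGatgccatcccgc

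The receptor class was led by a co-receptor. Eng (ENSMUSG00000026814.16, chr2:32646595-32682669, plus strand) encodes endoglin, an endothelial co-receptor for BMP9 and BMP10 that is lost in hereditary haemorrhagic telangiectasia. It stood at 61.5 and 70.6 TPM, above 91.3% of detected protein-coding genes. Tgfbr3 encodes betaglycan, which presents TGF-beta2 to the signalling receptors, and stood at 17.2 and 19.9 TPM. The log2 ratio of Eng over Tgfbr3 was 1.83 ± 0.01 (SD, n = 2), the smallest SD but that of Bmpr2 over Acvr2a among the 26 pairs of related members compared.

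Bmpr1a was the most abundant type I receptor RNA, at 46.4 and 37.8 TPM. It encodes the BMP receptor also called ALK3, needed in heart muscle for wall and septum formation. Its paralog Bmpr1b, known from cartilage, was low at 0.09 and 0.15 TPM, from 14 and 19 counts against 6000 and 5000 counts for Bmpr1a. The log2 ratio of Bmpr1b over Bmpr1a was -7.59 ± 0.49 (SD, n = 2), and by kallisto it was -7.96. Its size rests on the 0.1 added, which is as large as the Bmpr1b level, and it was -5.26 with 1 added and -8.37 with 0.01 added. Acvr1, the BMP receptor ALK2, stood at 12.8 and 11.8 TPM, with a log2 ratio of -1.76 ± 0.12 over Bmpr1a. Acvrl1, the endothelial receptor ALK1 that pairs with endoglin, stood at 10.9 and 15.1 TPM. Tgfbr1, the TGF-beta receptor ALK5, stood at 8.98 and 8.22 TPM, and the activin receptor gene Acvr1b, for ALK4, at 8.42 and 7.90 TPM. Neither Acvrl1 over Tgfbr1 (log2 ratio 0.58 ± 0.42) nor Acvr1b over Tgfbr1 (-0.07 ± 0.02; SD, n = 2 for each) lay more than 3 SD from 0.

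The type II receptors were all detected. Tgfbr2, which binds TGF-beta and starts its signal, stood at 24.6 and 23.3 TPM. Bmpr2, mutated in heritable pulmonary arterial hypertension, stood at 21.04 and 20.77 TPM. The activin receptors Acvr2a and Acvr2b, which BMPs and myostatin also use, stood at 8.13 and 7.97 TPM and at 2.97 and 3.25 TPM. Within each heart Tgfbr2 was above Tgfbr1 (log2 ratio 1.47 ± 0.04), Bmpr2 was above Acvr2a (1.37 ± 0.01), and Acvr2b was below Acvr2a (-1.35 ± 0.11; SD, n = 2 for each). In the receptor class the ranges overlapped between 3 of 11 neighbours in order of level, Acvrl1 and Acvr1, Tgfbr1 and Acvr1b, and Acvr1b and Acvr2a.

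The receptor protein of Tgfbr2 is known in a longer form with an insertion in its extracellular part. In the annotation, transcript Tgfbr2-202 has a coding exon of 75 nt, or 25 codons, that Tgfbr2-201 lacks. It is exon 2 of 8, at chr9:116158271-116158345 on the minus strand of mm10. Tgfbr2-202 held 29.8% and 30.7% of the RSEM level of the gene and Tgfbr2-201 held 70.2% and 69.3%. By kallisto the shares were 26.3% and 26.9% for Tgfbr2-202 and 73.7% and 73.1% for Tgfbr2-201. The longer coding form thus held between 26.3% and 30.7% of the level by both methods in both hearts. The 2 transcripts also end at different sites and measure 8092 nt for Tgfbr2-202 and 3476 nt for Tgfbr2-201, so their shares do not rest on reads over the exon alone. The exon is printed in capitals with 12 flanking bases on each side, as the stretch that sets the longer receptor apart.
Tgfbr2-202 exon 2: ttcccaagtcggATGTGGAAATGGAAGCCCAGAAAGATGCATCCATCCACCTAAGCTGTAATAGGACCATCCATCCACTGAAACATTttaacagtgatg

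Smad4, the partner shared by both branches, was the most abundant SMAD RNA. Smad4 (ENSMUSG00000024515.13, chr18:73639009-73703780, minus strand) stood at 29.3 and 30.3 TPM, from 2741 and 2760 counts. Of the BMP-branch SMADs, Smad5 stood at 19.7 and 18.7 TPM, Smad1 at 13.6 and 12.4 TPM, and Smad9 at 0.81 and 0.90 TPM from 133 and 145 counts. Smad9 was the only SMAD below 1 TPM, with a log2 ratio of -4.34 ± 0.15 over Smad5 (SD, n = 2), or 20.3-fold lower. Smad1 over Smad5 had a log2 ratio of -0.56 ± 0.04, which was -0.21 by kallisto.

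Of the TGF-beta-branch SMADs, Smad2 stood at 14.5 and 12.3 TPM and Smad3 at 9.12 and 8.82 TPM, a log2 ratio of -0.57 ± 0.13 for Smad3 over Smad2 (SD, n = 2). The ranges of Smad2 and Smad1 overlapped, and kallisto put them in the other order. A form of Smad2 without its exon 3, known to bind DNA as Smad3 does, is annotated as Smad2-202. It lacks 90 nt, or 30 codons, and held 15.2% and 14.3% of the Smad2 level by RSEM and 18.3% and 10.4% by kallisto. The inhibitory SMADs were both detected, Smad7 at 12.3 and 11.9 TPM and Smad6 at 6.48 and 7.07 TPM, with a log2 ratio of -0.83 ± 0.12 for Smad6 over Smad7. Smad7 competes for the receptors of both branches, whereas Smad6 acts mainly on BMP signals.

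The LTBPs included the most abundant member of all 42. Ltbp4 (ENSMUSG00000040488.17, chr7:27305136-27337692, minus strand) stood at 156 and 172 TPM, from 23064 and 25252 counts, above 96.6% of detected protein-coding genes. Its product binds latent TGF-beta1 and is needed for elastic fibre assembly. Ltbp3 stood at 31.1 and 31.2 TPM and Ltbp1 at 26.8 and 28.3 TPM, both proteins that carry all 3 latent TGF-betas. Ltbp2, whose protein does not bind latent TGF-beta, stood at 2.27 and 1.96 TPM. The log2 ratio over Ltbp4 was -2.57 ± 0.05 for Ltbp1, -6.22 ± 0.24 for Ltbp2 and -2.39 ± 0.10 for Ltbp3 (SD, n = 2 for each). Ltbp4 was thus 5.26-fold or more above each paralog in the mean ratio by RSEM, and 5.71-fold or more by kallisto. The 2 methods disagreed on the order of Ltbp3 and Ltbp1.

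Ltbp4 and Ltbp1 are each annotated with start sites far apart, and the starts give proteins of different length at their N-terminus. At Ltbp4 the downstream start, 4029 nt into the gene, held 97.8% and 97.0% of the TPM of its full-length coding transcripts by RSEM, and 75.7% and 79.1% by kallisto. It was thus the leading start in both hearts by both methods, though the share of the upstream start was at most 3.02% by RSEM and at least 20.9% by kallisto. At Ltbp1 the upstream start, whose leading transcript Ltbp1-201 is the long form with 5136 coding nt, held 77.3% and 76.3% by RSEM and 67.4% and 70.0% by kallisto. The downstream start of Ltbp1 lies 173242 nt further on and held 22.7% and 23.7% by RSEM and 32.6% and 30.0% by kallisto. Nearly all of that share was Ltbp1-202, the short form with 4023 coding nt, at 5.76 and 6.21 TPM by RSEM. The 2 related genes thus led with opposite starts, Ltbp4 with its downstream one and Ltbp1 with its upstream one.

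The 250 bases before the RefSeq start nearest to each of these starts are printed because they show how unlike the 4 promoters are. They are RefSeq promoter sequences of GRCm38.p6, each read 5′ to 3′ on the gene's strand and ending just before the RefSeq start. The RefSeq start of the downstream Ltbp4 window is the annotated one used for the shares, and the other RefSeq starts lie close to theirs. For the downstream Ltbp1 window the RefSeq start is 75178781, while Ltbp1-202 starts at 75178911. For the upstream Ltbp4 window the RefSeq start is 27337612, while the annotated start is 27337692 on the minus strand. The last bases of that window therefore lie inside the annotated transcripts. The downstream Ltbp4 window is chr7:27333664-27333913 (minus strand), the upstream one chr7:27337613-27337862 (minus strand), the upstream Ltbp1 window chr17:75005279-75005528 (plus strand) and the downstream one chr17:75178531-75178780 (plus strand). Capitals mark matches to GGGCGG, the GC box, to CAGAC, a SMAD3 and SMAD4 element, and to GGCGCC, a GC-rich element described for BMP SMADs, on either strand.
Ltbp4 downstream: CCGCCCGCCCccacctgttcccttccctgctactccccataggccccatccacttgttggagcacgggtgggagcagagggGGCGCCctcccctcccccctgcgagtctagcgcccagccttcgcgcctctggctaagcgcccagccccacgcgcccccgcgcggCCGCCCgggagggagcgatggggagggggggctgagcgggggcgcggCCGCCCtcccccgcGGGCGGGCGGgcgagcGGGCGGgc
Ltbp4 upstream: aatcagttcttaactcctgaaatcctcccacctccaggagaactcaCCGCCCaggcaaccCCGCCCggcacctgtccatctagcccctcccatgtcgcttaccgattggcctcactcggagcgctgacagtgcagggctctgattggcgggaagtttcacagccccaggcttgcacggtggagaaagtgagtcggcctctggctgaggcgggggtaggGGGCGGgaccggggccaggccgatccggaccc
Ltbp1 upstream: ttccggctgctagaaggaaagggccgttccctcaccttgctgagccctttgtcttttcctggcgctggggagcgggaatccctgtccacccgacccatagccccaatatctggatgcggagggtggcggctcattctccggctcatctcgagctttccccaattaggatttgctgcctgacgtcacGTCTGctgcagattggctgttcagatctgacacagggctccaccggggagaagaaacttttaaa
Ltbp1 downstream: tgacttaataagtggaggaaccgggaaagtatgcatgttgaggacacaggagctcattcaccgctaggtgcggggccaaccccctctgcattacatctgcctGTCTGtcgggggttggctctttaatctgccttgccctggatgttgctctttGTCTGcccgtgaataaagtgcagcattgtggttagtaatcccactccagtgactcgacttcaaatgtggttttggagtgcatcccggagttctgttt

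The downstream Ltbp4 window, before the start that led, was 79.2% G and C and held 7 matches to GGGCGG, overlapping ones included, and 1 to GGCGCC. The upstream Ltbp4 window was 64.4% G and C and held 3 matches to GGGCGG. The Ltbp1 windows were 56.8% G and C upstream and 50.8% downstream, with 1 and 2 matches to CAGAC. No window held the TATA box letters TATAAA, which says only that these letters are not in the 250 bases. Over the whole promoter table of 32851 windows, GGGCGG was in 32.7%, CAGAC in 42.2%, TATAAA in 12.4% and GGCGCC in 9.59%. The table holds 41 windows of 32 members, of which 26 held GGGCGG, 20 held CAGAC, 5 held TATAAA and 9 held GGCGCC. A match is a description of the letters and not a bound site.

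**Figure D2:**
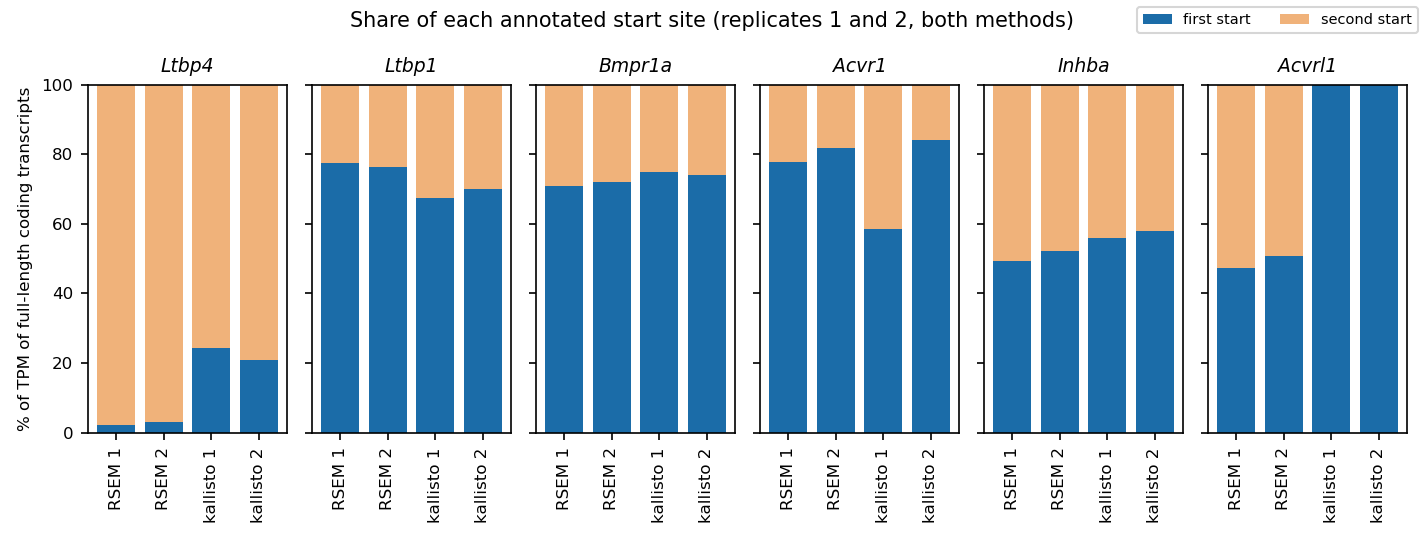
Share of each annotated start site in the TPM of a gene's full-length coding transcripts, in percent, for 6 members, by RSEM and by kallisto in replicates 1 and 2. Starts over 500 nt apart are set apart and numbered along the gene. Ltbp4 led with the second start and Ltbp1 with the first in all bars, while for Acvrl1 the second start held 52.7% and 49.3% by RSEM and almost nothing by kallisto.

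Of the secreted inhibitors only Fstl1 was abundant. Fstl1 (ENSMUSG00000022816.11, chr16:37776873-37836514, plus strand), which encodes a follistatin-like glycoprotein that binds BMPs and is known in the heart for its epicardial form, stood at 142 and 159 TPM. Its range overlapped that of Ltbp4. Fstl3, a neutraliser of activin and myostatin, stood at 2.32 and 2.11 TPM. Fst, which encodes the activin-binding protein follistatin (ENSMUSG00000021765.9, chr13:114452290-114458951, minus strand), was at 0.48 and 0.19 TPM from 28 and 16 counts. The log2 ratio over Fst was 8.52 ± 0.82 for Fstl1 and 2.50 ± 0.61 for Fstl3 (SD, n = 2 for each). The Fstl1 level was thus far above those of Fstl3 and Fst.

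The classical BMP antagonists were low. Chrd, which encodes chordin, was at 0.56 and 1.04 TPM from 57 and 79 counts, on either side of 1 TPM. By kallisto it was at 0.75 and 0.96 TPM. In replicate 2 the RSEM value took in the retained-intron transcripts Chrd-208 and Chrd-206, with 17.1% and 10.0% of the level. Both were at 0 in replicate 1 and by kallisto. The coding transcript Chrd-201 was at 0.53 and 0.58 TPM by RSEM. Nog, which encodes noggin, was at 0.10 and 0.08 TPM from 5 and 4 counts, with a log2 ratio of 2.19 ± 0.67 for Chrd over Nog (SD, n = 2). That ratio too rests on the value added, and was 0.71 with 1 added and 2.96 with 0.01 added. Grem1, which encodes gremlin 1, was listed at 0 counts in both libraries. At this depth Grem1 RNA was not detectable, and no fold against it is given.

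Over the 26 pairs of related members, 23 lay more than 3 SD from 0 with the same sign in both hearts, 7 with the first gene higher and 16 with it lower. The last of these, Grem1 over Nog, rests on the 0.1 added to each value. How many pairs of other genes would pass this rule was not counted, so the number is not shown to be particular to the members. Some pairs also share a gene, such as Ltbp4, Fst or Tgfbr1. The pairs that did not reach that limit were Tgfb3 over Tgfb2, Acvrl1 over Tgfbr1 and Acvr1b over Tgfbr1. No mean ratio changed its sign by kallisto. With 1 added in place of 0.1 the mean ratio was -1.53 for Inhbb over Inhba, -3.45 for Smad9 over Smad5, 1.28 for Fstl3 over Fst and 6.83 for Fstl1 over Fst, each nearer to 0 than reported. An exact sign-flip test over 2 libraries cannot give a two-sided p below 0.5, and no p is given for a pair.

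**Figure D3:**
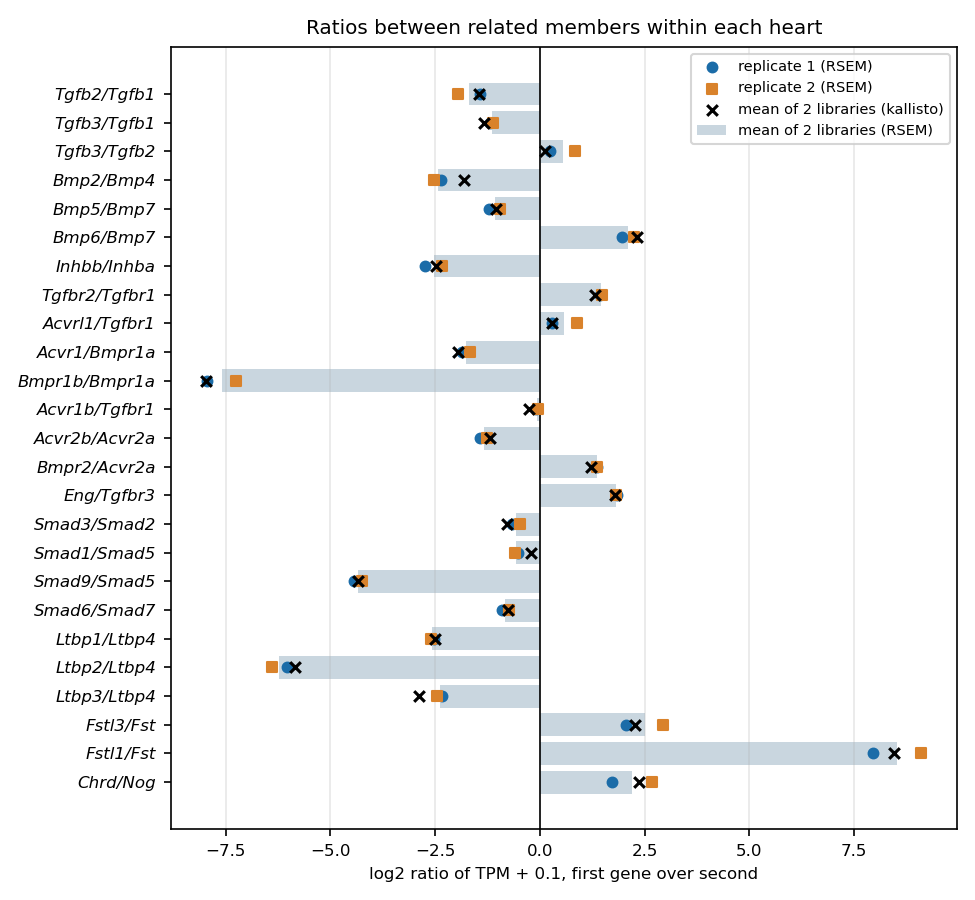
Log2 ratio of TPM (with 0.1 added) between related members, first gene over second, for 25 of the 26 pairs (Grem1 over Nog is left out because Grem1 was at 0). Bars are the mean of both libraries by RSEM, circles and squares are replicates 1 and 2, and crosses are the kallisto mean. Bmpr1b over Bmpr1a and Fstl1 over Fst lie furthest from 0, and each cross lies on the same side of 0 as its bar.

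The 2 hearts were set beside each other to show how firm these levels are. The measure was the log2 ratio of normalised counts, replicate 2 over replicate 1, with an exact 95% interval that covers counting error alone. With 1 library on each side it compares these libraries and carries no p-value. Past 1.5-fold, at a summed count of 20 or more, was 1 of 39 members, beside 8.05% of all genes and 5.3% of protein-coding genes at that depth, and 1.57% of detected protein-coding genes. That member was Fst, with 28 counts in replicate 1 and 16 in replicate 2. Its log2 ratio was -0.75 and its fold 0.595, with an interval of 0.297 to 1.12 that includes equal levels. Leaving out genes with a summed count below 100 removed it from the comparison.

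Past a log2 ratio of 0.32 either way were 6 of 39 members, beside 19.4% of all genes and 14.3% of protein-coding genes, and past 2-fold were 0, beside 2.58% and 1.68%. The 6 were Tgfb2, Inhba, Gdf15 and Fst, lower in replicate 2, and Bmpr1b and Chrd, higher in replicate 2. Tgfb2, with 915 and 619 counts in replicates 1 and 2, had a log2 ratio of -0.52 and an interval of -0.67 to -0.38. Inhba, with 450 and 340 counts, had a log2 ratio of -0.36 and an interval of -0.57 to -0.16. For both ligands the difference between the hearts was larger than counting error. Chrd, at 57 and 79 counts, had a log2 ratio of 0.51 with an interval of 0.0011 to 1.03, whose lower end lay just above equal levels. Gdf15 and Bmpr1b, with at most 19 counts a library, had intervals that included equal levels.

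Of the other members, Bmpr1a had the most counts among those lower in replicate 2, with a log2 ratio of -0.22 and an interval of -0.28 to -0.17. Eng and Tgfbr3 had a log2 ratio of 0.20 each, with intervals of 0.15 to 0.25 and 0.13 to 0.27. Ltbp4 had a ratio of 0.17, with an interval of 0.14 to 0.20, and Fstl1 one of 0.12, with an interval of 0.09 to 0.15. In all, the interval excluded equal levels for 15 of the 39 members, 7 lower and 8 higher in replicate 2. The same share over all genes was not counted, so this number is not shown to be particular to the members. At high counts the interval is narrow and leaves out equal levels at small differences. Of the 15, those not yet named were Tgfbr1, Smad1, Smad2 and Smad3, lower, and Acvrl1, Smad6 and Ltbp1, higher, with log2 ratios between -0.19 and 0.21. The median size of the log2 ratio was 0.11 over the 32 detected members and 0.09 over detected protein-coding genes. Of the 39 members 19 were higher and 20 lower in replicate 2.

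**Figure D4:**
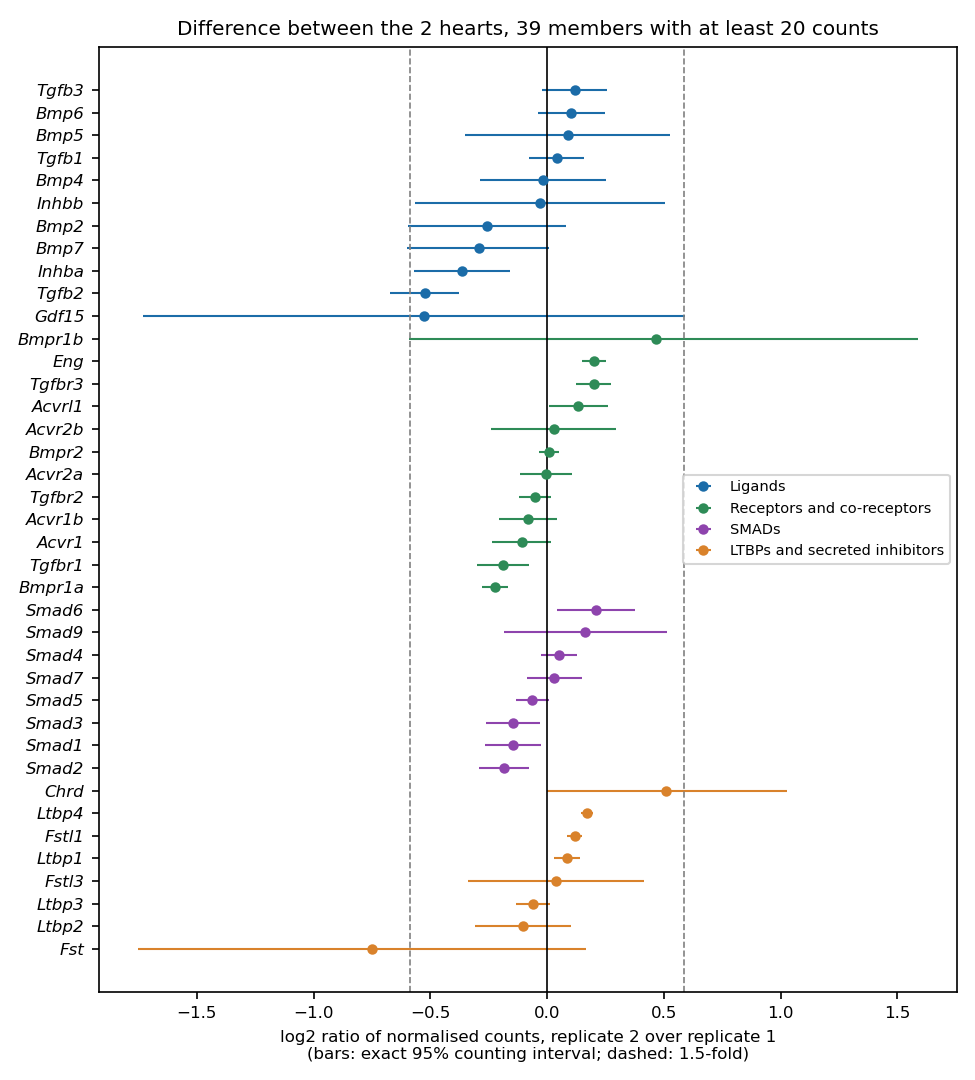
Log2 ratio of normalised counts between the hearts, replicate 2 over replicate 1, for the 39 members with a summed count of at least 20, coloured by class. Bars are exact 95% counting intervals and dashed lines mark 1.5-fold. Fst lies past the line at -0.75 with a bar that crosses 0, and Tgfb2 at -0.52 has a bar that does not.

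Other genes separated the hearts more than any member did. The marker lists used here were chosen with earlier results of these data known, so their counts are descriptions and not tests. At a summed count of 20 or more, 8.05% of all genes and 5.3% of protein-coding genes were past 1.5-fold. All 6 atrial cardiomyocyte markers were past 1.5-fold and higher in replicate 2, with a summed level of 522 TPM in replicate 1 and 966 TPM in replicate 2. All 5 erythroid markers were higher too, with sums of 3707 and 9089 TPM, and all 5 adipocyte markers were lower, with sums of 64.5 and 10.1 TPM. Endocardial markers, 4 of 4 higher in replicate 2 with sums of 31.7 and 37.6 TPM, and epicardial markers, 5 of 5 lower with sums of 60.3 and 53.5 TPM, moved less. None of the 7 fibroblast, 6 endothelial, 6 mural, 5 macrophage or 7 cardiomyocyte markers was past 1.5-fold. Of 5 cartilage and valve markers 1, Sox9, was detected, at 2.71 and 2.41 TPM, and Col2a1 was past 1.5-fold and higher in replicate 2, at 0.25 and 0.55 TPM. No marker in these lists was at 0 in both hearts. The part of these cells in the member differences was not tested.

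The wider pathway lists are given beside the 53.3% of protein-coding genes detected and the 5.3% past 1.5-fold at 20 counts or more. Of 21 other ligands 3 were detected, led by the atrial ligand Bmp10 at 9.35 and 20.2 TPM, which was higher in replicate 2 with a log2 ratio of 1.12 and is also in the atrial list. Also past 1.5-fold among the 7 of that list with enough counts were Inha, the inhibin alpha subunit, higher in replicate 2 at 2.04 and 3.10 TPM, and the low genes Bmp3 and Lefty1, lower at 0.15 and 0.06 TPM and at 0.44 and 0.19 TPM. Of 8 other receptors and co-receptors 4 were detected, led by the BMP co-receptor Rgma at 20.3 and 25.0 TPM. The activin-type receptor gene Acvr1c, for ALK7, known from fat cells, was past 1.5-fold and lower in replicate 2 at 0.69 and 0.09 TPM, as the adipocyte markers were, and so was Amhr2, on 18 and 10 counts.

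Of 20 genes for ligand activation and storage 18 were detected and 0 of the 20 with enough counts were past 1.5-fold, led by the integrin subunit gene Itgb1 at 247 and 246 TPM. Of 14 other secreted inhibitors 5 were detected and 0 of the 9 with enough counts were past 1.5-fold, led by Twsg1, the chordin partner, at 28.8 and 33.8 TPM. Of 19 SMAD regulators 18 were detected and 0 of the 18 with enough counts were past 1.5-fold, led by Fkbp1a, which keeps type I receptors silent, at 152 and 155 TPM. Of 17 transcriptional targets 15 were detected, led by the collagen gene Col1a1 at 351 and 380 TPM, and 1, the cell cycle inhibitor gene Cdkn2b, was past 1.5-fold and lower in replicate 2, on 14 and 7 counts.

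The 2 quantifications in the files gave like orders and unlike levels. Kallisto TPM was above RSEM TPM for 38 members and below it for 3, and Grem1 was at 0 by both. The same share over all genes was not counted, so this shift is not shown to be particular to the members. Among detected members the median ratio of kallisto to RSEM was 1.23, from 0.752 for Bmp4 to 1.82 for Ltbp2. Over the 4 classes there were 38 neighbours in order of level, of which 8 had overlapping ranges between the hearts and 6 came in the other order by kallisto. Of the 32 detected members 3 had a single annotated transcript, and 30 had the same leading transcript in both hearts by RSEM and 31 by kallisto. The 3 with a single transcript are counted in both and agree by construction, and the same share over all genes was not counted. For 27 the leading transcript was the same in all 4 values, and the exceptions were Bmp4, Inhba, Acvr1, Acvrl1 and Eng.

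At these genes the level per form is therefore uncertain. Acvrl1-205, with the downstream start, held 49.7% and 39.9% of the Acvrl1 level by RSEM and 0.000193% or less by kallisto. A short annotated form of 312 nt, Acvrl1-207, held 2.91% of Acvrl1 in replicate 1 and 18.4% in replicate 2 by RSEM, and 0 by kallisto. The Acvrl1 TPM of the hearts stood further apart, with a log2 ratio of 0.47, than the counts of 975 and 1041, with a log2 ratio of 0.13. Eng-201 held 63.1% and 68.0% by RSEM and 38.0% and 39.2% by kallisto, where Eng-202 held 40.12% and 40.03%. Inhba was split near evenly between its starts, with 49.2% and 52.1% for the first by RSEM and 55.9% and 57.9% by kallisto. Bmpr1a gave 70.7% and 72.0% for its first start by RSEM and 74.9% and 74.0% by kallisto. Of 11 members with starts over 500 nt apart, 8 had the same leading start in all 4 values, and the exceptions were Inhba, Acvrl1 and Smad2. Among the 8, the second start held at most 0.958% at Smad5 and at most 5.93% at Tgfbr1. How often other genes keep their leading start was not counted.

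**Figure D5:**
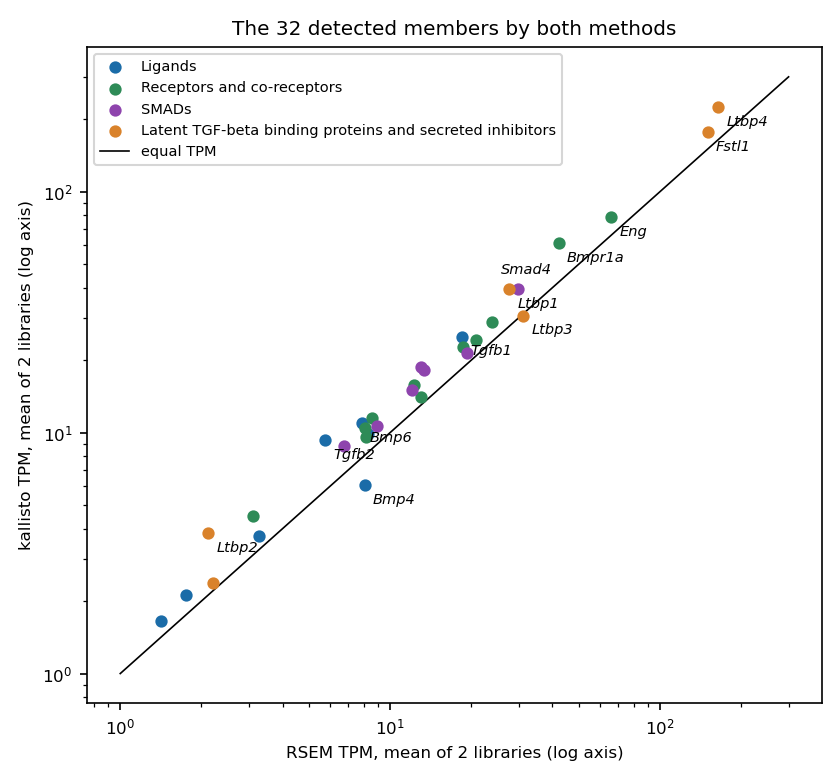
Mean TPM of the 32 detected members by kallisto against RSEM, both on log axes, coloured by class, with a line of equal TPM. Nearly all points lie on or above the line, and Bmp4 lies furthest below it, at a ratio of 0.752.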

How the data were processed

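Total RNA from 2 hearts (300 ng each) was sequenced with spike-ins, per the labels. The authors deposited gene and transcript tables with expected counts, TPM and, for transcripts, the percent of the gene's level held by each (column headers as RSEM writes them), and transcript tables of estimated counts and TPM (headers as kallisto writes them). Assembly mm10 is named per the labels; for aligners, versions and strand settings the sources used here give nothing. Reads of both parental genomes were assigned to 1 reference, and the effect of that was not tested. Gene type and position came from GENCODE M21, to which all 55536 genes matched; 26248 entries without a gene name held 3.84 and 2.92 expected counts and 97 spike-ins held 0.541% and 0.575% of counts, and both stayed out of library sizes.

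Expected counts were rounded to whole numbers. Deposited counts of 41 of 42 members were whole in both libraries within 0.005, all but Tgfbr3. Exons of 16 members overlap another annotated gene, 2 of them on the same strand; beside the one named in the text, Acvr2a overlaps Orc4 (15.97 and 15.92 TPM) and Eng overlaps Fpgs (4.70 and 3.45 TPM) on the opposite strand, not every partner is reported here, and with no strand setting stated the reads of such genes cannot be told apart. Ratios between libraries used edgeR 4.0.16 TMM library sizes, a prior count of 0.5 and exact Clopper-Pearson 95% intervals, which cover counting error only. With 1 group there was no differential test. Pair ratios used TPM plus 0.1, and a pair was set apart at 3 SD. The fold measure was tried on simulated counts that held counting error and planted changes alone. That simulation therefore says nothing of the spread between real hearts. Python 3.11.15, R 4.3.3 and DESeq2 1.42.0 (size factors as an alternative) were used.

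Members and lists were chosen with earlier results of these data known. All 42 members are accounted for. Described in full are the highest member of each role, members past 1.5-fold or below 1 TPM, and both genes of each pair, and, of wider lists, the highest gene and those past 1.5-fold. The listed symbols Hjv and Gasp1 were not matched and were not used. Alternatives were kallisto values, other pseudocounts, detection limits, count minimums, folds and scalings, protein-coding transcripts alone, and each library alone.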

Additional observations from a re-analysis of the deposited data

How the results depend on the processing

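With 1 group of 2 libraries, no value here has a test between conditions, and the SDs rest on 2 values. Precision below about 100 counts a library is limited by depth, which touches Fst, Gdf15, Bmpr1b, Nog, Mstn, Inhbb, Bmp5 and Chrd. No paired analysis was possible because the libraries form a single group. Protein identity between related members was not run, since no protein sequences were used here, and pair SDs cannot be had from 1 library.

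The number of detected members was 32 by RSEM and 32 by kallisto, 32 to 33 with 1 library left out, 35 at 0.5 TPM and 25 at 5 TPM. The number of pairs apart was 23 as reported, 22 by kallisto, 22 with a pseudocount of 1 and 23 with 0.01. By kallisto each mean ratio kept its sign. Another pseudocount could not change a sign, since a value added to both genes keeps their order. Leaving out a library could not either, since each pair had the same sign in both libraries. The number of members past 1.5-fold was 1 with median-of-ratios size factors, with total counts and without a count minimum, 0 at a summed count of at least 100, 2 by kallisto counts (Gdf15 and Fst), 6 at a log2 limit of 0.32 and 0 at 2-fold. Chosen after seeing the data, the ratio of RSEM TPM gave 2 (Fst and Chrd). Where TPM and kallisto counts differ from gene counts the cause was not tested.

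Class medians moved by more than 1 SD in these cases. By kallisto they were 14.9 TPM for receptors, 16.2 TPM for SMADs and 3.11 TPM for storage and inhibitor genes. Over detected members alone they were 6.71 TPM for ligands, 14.0 TPM for receptors and 29.4 TPM for storage and inhibitor genes, by construction without the low members. Rescaled over nuclear protein-coding genes they were 5.94, 29.9, 29.6 and 5.12 TPM for ligands, receptors, SMADs and storage and inhibitor genes, by construction since other RNA classes were left out. With 1 library left out they ranged from 2.22 to 2.81 TPM for ligands, 11.9 to 13.5 TPM for receptors, 12.1 to 13.0 TPM for SMADs and 2.04 to 2.30 TPM for storage and inhibitor genes. Leading transcripts were the same in both hearts for 30 members by RSEM, 31 by kallisto and 31 over protein-coding transcripts alone, and for 27 by both methods at once. Each number includes the 3 members with a single annotated transcript.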
